A study of Mus musculus with 4 samples.

Results

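The block described here is an 11 Mb stretch of proximal mouse chromosome 2, made up of the CTCF peaks whose midpoints lie from 24000000 to 35000000 on the mm9 build. It held 343 of the 15109 peaks in the deposited list and 343 of the 1303 on chromosome 2. Hippocampus from C57/Bl mice was used for ChIP-seq, in which chromatin is immunoprecipitated and the recovered DNA is sequenced, with no treatment or genotype contrast given in the labels. The 2 ChIP libraries, made with a Millipore anti-CTCF antibody (07-729), and the 2 input libraries, from chromatin that was not immunoprecipitated, were combined into 1 peak list. The series text counts 1 input sample, whereas the labels and the name in the list's header give 2. No peak therefore has a value in any single library, no replicate error exists and no comparison below has a test. The labels give neither the age nor the sex of the mice, and a whole hippocampus mixes neurons, glia and vascular cells, so a peak cannot be assigned to a cell type.

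CTCF binds a long, asymmetric DNA motif through its array of zinc fingers. It stops the cohesin complex as cohesin extrudes chromatin loops, and pairs of CTCF sites therefore often mark loop anchors and boundaries of chromatin domains. Many CTCF sites are shared between tissues, and in the brain CTCF is needed for the development and function of neurons.

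In the general map of the mouse genome, this stretch runs from about Cacna1b, a neuronal calcium channel gene, to about Traf1, a signalling adaptor gene. In their order along the chromosome, landmarks of the stretch include Ehmt1 (a histone methyltransferase), Grin1 (the obligatory subunit of NMDA receptors), Notch1 (a receptor for cell contact signals), Brd3 (a chromatin reader) and Rxra (a nuclear receptor). They continue with Tsc1 (an inhibitor of mTOR signalling), Sptan1 (brain spectrin), Abl1 (a tyrosine kinase) and Dnm1 (dynamin of synaptic vesicle recycling). Lmx1b and Pbx3, both homeobox genes, and Hspa5, a chaperone gene, lie towards the far end. All 33 landmarks considered were found on chromosome 2 in the RefSeq gene table. That table is on the GRCm38.p6 assembly and was used only for names and order. From Cacna1b to Traf1 it lists 237 protein-coding genes, 13.3% of the 1782 on chromosome 2. The description of the block as gene-dense could be checked only through this gene order. Peaks are on mm9, so none was assigned to a gene. Peak sequences are not shown, since no mm9 sequence was used here.

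CTCF peaks were crowded in the block. It held 26.3% of the peaks of chromosome 2 on 6.16% of the span between that chromosome's first and last peak. This gave 31.2 peaks per Mb (95% Poisson interval 28.0 to 34.7), against 5.73 per Mb (5.37 to 6.10) on the rest of chromosome 2, a ratio of 5.44 (4.80 to 6.16). The peaks covered 194 kb, or 1.77% of the block, against 0.314% of the rest. The intervals cover counting error only and treat peaks as independent, which neighbouring peaks are not. The block had been chosen with its density known, so the ratio is a description of the choice.

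The crowding held for strong and weak peaks. The authors' peak score is a whole number whose scaling the sources used here do not state, so it serves only to rank peaks in this list. Strong here means a score of 163 or more, the upper quartile of the whole list. The block held 89 strong peaks, or 8.09 per Mb against 1.40 per Mb on the rest of chromosome 2, a ratio of 5.77 (4.47 to 7.39). For the 254 weaker peaks the ratio was 5.34 (4.61 to 6.17). For the 10 block peaks with scores in the top 5% of the list it was lower, 3.81, with a wide interval (1.70 to 7.75) that includes both other ratios. The share of strong peaks was 25.9% in the block, 24.5% on the rest of chromosome 2 and 25.4% in the whole list. That share is close to the background by either measure.

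The low-coordinate limit of the block lies within a long stretch without peaks, and its upper limit lies within a shorter one. The long one spanned 1.34 Mb. It ran from the last outside peak at 22923784 to 22924182 (score 105) to the first inside at 24260635 to 24261776 (score 588). At the far end the last inside peak, at 34799288 to 34799668 with a score of 62, was 227 kb from the next outside, at 35026595 to 35026952 with a score of 53. The window from 35 to 36 Mb still held 21 peaks, and that from 36 to 37 Mb held 1. The upper limit of the block therefore borders a populated window outside it, whereas the lower limit borders an empty one, from 23 to 24 Mb.

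Every 1 Mb window of the block held peaks, from 8 to 62 with a median of 34. Of the 166 full windows outside the block on chromosome 2, 47 (28.3%) were empty, the median count was 3 and the highest was 45. The count rose from 8 at 24 to 25 Mb through 26 and 35 to 40 at 27 to 28 Mb. It then fell to 28 and to 19 at 29 to 30 Mb. A second rise gave 40, 41 and 62 peaks in the windows from 30 to 33 Mb, followed by 34 and 10. The block thus had 2 rises with a dip between them, and the second was the higher. More than 30 peaks were found in 6 windows of the block and in 5 elsewhere on the chromosome.

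**Figure D1:**
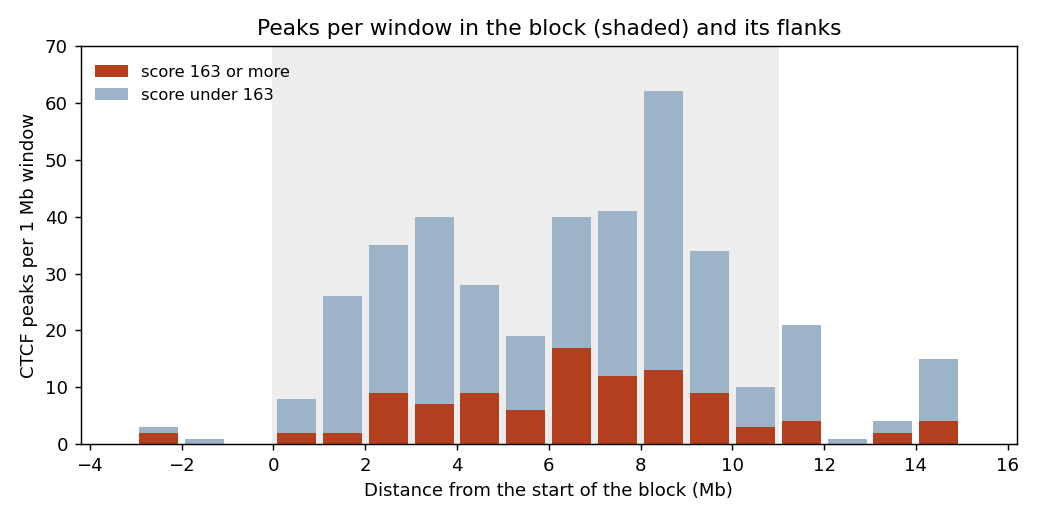
CTCF peaks per 1 Mb window (vertical axis, number of peaks) against distance in Mb from the start of the block (horizontal axis), with the 11 Mb of the block shaded and strong peaks (score 163 or more) in red at the foot of each bar. Counts rise to 40, dip to 19 and rise again to 62 in the window 8 to 9 Mb from the start, while the red part is tallest, at 17, in the window 6 to 7 Mb from the start.

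Few other stretches of this length were as full. Among 2325 overlapping stretches of 11 Mb, placed at 1 Mb steps over all chromosomes, 7 held more peaks than the block. Of these, 1 was the block moved by 1 Mb, from 25 to 36 Mb, with 356 peaks, and the others lay on chromosomes 4, 5 and 11, whose fullest stretches held 392, 346 and 345. On chromosome 2 the fullest stretch that did not overlap the block ran from 163 to 174 Mb and held 263 peaks. Its median score, 89, equalled that of the block, but only 18.3% of its peaks were strong (exact binomial 95% interval 13.8 to 23.5%), against 25.9% in the block (21.4 to 30.9%). These 2 intervals overlap, and the difference was not tested.

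The middle of the block's score range was close to that of the rest of chromosome 2, and no block peak scored 1000 or more. Its scores ran from 17 to 987 with a median of 89 and quartiles of 62 and 168. The rest of chromosome 2 ran from 13 to 2227 with a median of 93 and quartiles of 62 and 159. The order-statistic 95% interval of the block's median, 80 to 97, includes 93. At the upper end, 0 of the 343 block peaks scored 1000 or more, which allows a share of up to 0.875% at 3 counts, or 1.07% as the upper bound of the exact binomial 95% interval. On the rest of chromosome 2 the count was 20 of 960 (2.08%, 1.28 to 3.20%), and in the whole list it was 263 (1.74%). The limit of 1000 was chosen after the values had been seen. In the less crowded stretch from 163 to 174 Mb, with 23.9 peaks per Mb (21.1 to 27.0), 8 of 263 peaks (3.04%, 1.32 to 5.91%) passed it. At the lower limit of 569, the top 5% of the list, 10 block peaks (2.92%, 1.41 to 5.30%) compared with 4.17% (2.99 to 5.63%) on the rest of the chromosome, and these intervals overlap.

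The strongest peak of the block lay on chromosome 2 at 26757652 to 26758653 (mm9). It scored 987, was 1002 bp wide and ranked 21 on the chromosome and 269 in the list. Next came the peak at 32430522 to 32431463, with a score of 884, inside the fullest window. The third, at 24817678 to 24818635 with a score of 686, stood nearly alone, 112 kb from its nearest neighbour. The peak at 24260635 to 24261776, the first of the block, was similar, with a score of 588 and 116 kb to the next peak. Thus the sparse window from 24 to 25 Mb held 2 of the 10 highest scores among only 8 peaks.

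The sparse dip at 29 to 30 Mb also held strong and separate peaks. The peak at 29201862 to 29202767 scored 649 and had its nearest neighbour 101 kb away. Those at 29474843 to 29475344 (score 625) and 29932853 to 29933552 (score 594) stood 32.2 and 27.3 kb from theirs. This window had 19 peaks, of which 26.3% had another within 10 kb, the lowest share in the block after the window from 24 to 25 Mb, where no peak did.

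Other strong peaks stood next to companions. The peak at 31149748 to 31151429 scored 661, was 1682 bp wide and lay 3.0 kb from a peak that scored 349. The peak at 31993159 to 31993661 scored 634 on a width of only 503 bp, with a neighbour of score 138 at 5.06 kb. The peak at 30649981 to 30650535 scored 568 and had a neighbour of score 205 at 1.19 kb. Companions ranged from near-equals to much weaker peaks. At 30573650 to 30574888 a peak of score 427 lay 1.35 kb from one of 352, whereas the peak at 32480656 to 32481514 scored 540 beside one of 31.

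The remaining 8 of the 20 highest-scoring peaks continued this mix. The isolated ones were the peak at 27395547 to 27396230 (score 573, neighbour at 25.5 kb), the peak at 28268160 to 28269093 (score 528, neighbour at 82.2 kb), the peak at 26819492 to 26820123 (score 516, neighbour at 47.9 kb) and the peak at 32160093 to 32160651 (score 470, neighbour at 28.3 kb). The accompanied ones were at 27627041 to 27628012 (score 505), 25476964 to 25477785 (score 477), 27555015 to 27555544 (score 435) and 30254804 to 30255573 (score 431), each with a neighbour of score 43 to 69 within 6.85 kb. Over all 20, widths ran from 502 to 1682 bp with a median of 841 bp, and 10 had another peak within 10 kb. They fell in 9 of the 11 windows, at most 3 in each. The windows from 33 to 34 and 34 to 35 Mb held none, their strongest being at 33608476 to 33609901 (score 381) and 34526890 to 34527657 (score 296).

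The fullest window of the block did not hold its strongest set of peaks. The window from 30 to 31 Mb had 40 peaks with a median score of 132 (order-statistic 95% interval 97 to 190), and 17 of them (42.5%, exact binomial 95% interval 27.0 to 59.1%) were strong. Among the 90 windows of the whole list with 30 or more peaks, none had a higher median and 1 had a higher share of strong peaks. Its 17 strong peaks scored from 165 to 568, so none reached 569, the limit of the top 5% of the list. A group of 3 strong peaks at 30572596 to 30578031 scored 352, 427 and 344 in order along the chromosome. A run of 4 at 30456119 to 30469454 scored 275, 102, 132 and 419.

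**Figure D2:**
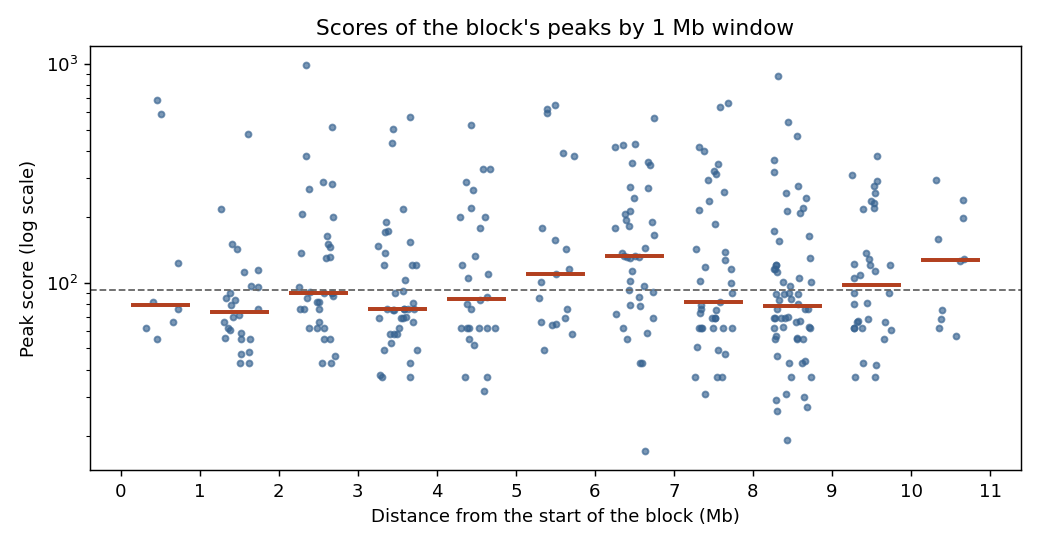
Score of each of the 343 peaks (vertical axis, log scale) by 1 Mb window, placed by distance in Mb from the start of the block (horizontal axis, with points spread sideways inside each window for legibility). Red bars are window medians and the dashed line is the median of the whole list, 93; the bar at 6 to 7 Mb, 132, stands highest and that at 1 to 2 Mb, 73.5, lowest.

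The window from 32 to 33 Mb held 62 peaks (95% Poisson interval 47.5 to 79.5), 18.1% of the block. Its median score was 78 (67 to 101), against 90 for the other 281 peaks of the block, and 13 of its peaks (21.0%, 11.7 to 33.2%) were strong, against 27.0% of the others (21.9 to 32.6%). Scores under the list median of 93 made up 61.3% of the window, 52.3% of the other block peaks and 49.7% of the rest of chromosome 2. All these values point to lower scores, but the intervals of median and share include those of the other peaks. Nor was it the weakest window: those from 25 to 26 and 27 to 28 Mb had medians of 73.5 and 76, and strong shares of 7.69% and 17.5%. Among the 90 windows of the list with 30 or more peaks, 10 had a lower median than 78, and 33 had a lower share of strong peaks.

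**Figure D3:**
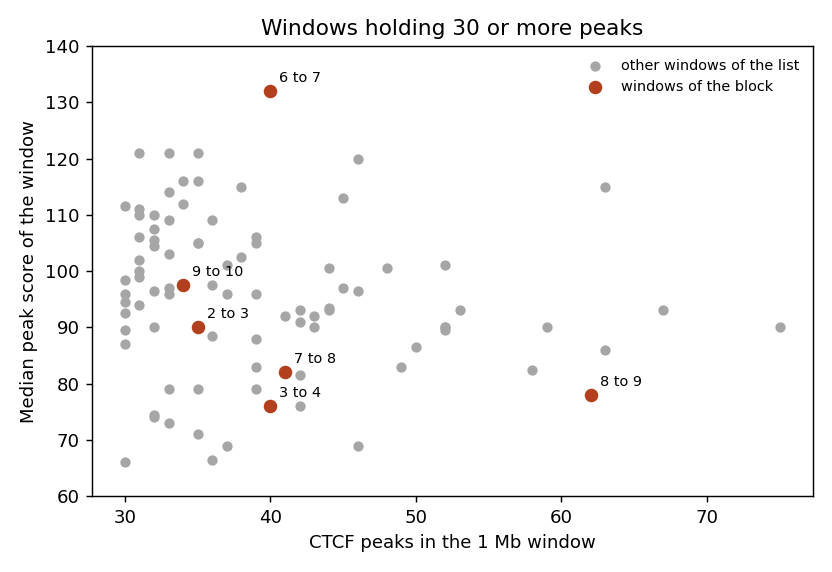
Median peak score (vertical axis) against number of peaks (horizontal axis) for the 90 windows of 1 Mb in the list that held 30 or more peaks, with the 6 windows of the block in red, labelled by their distance in Mb from its start. The window at 8 to 9 Mb lies far to the right at 62 peaks with a median of 78, and the window at 6 to 7 Mb is the highest point of all, at 132.

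Most peaks of this window lay on one side, and so did most of its strong peaks, a split that was not tested. From 32 to 32.5 Mb it held 40 peaks with a median score of 89, and 11 of them were strong. From 32.5 to 33 Mb it held 22 peaks with a median of 69, and 2 of them were strong, at 32707678 to 32708257 (score 278) and 32986789 to 32987310 (score 219). On the stronger side lay the peaks of score 884 and 540 described above, and the isolated one of 470. It also held a peak at 32216831 to 32217436 with a score of 364 and one at 32042375 to 32043082 with a score of 319. The other strong peaks there were at 32422882 to 32424038 (score 256), 32030432 to 32030997 (245), 32046875 to 32047458 (213), 32191404 to 32192198 (208), 32188268 to 32188978 (172) and 32489059 to 32489686 (164). The fullest 100 kb of the block, from 32000001 to 32100000, held 12 peaks, and the next, from 32400001 to 32500000, held 11, so both lay on this side.

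**Figure D4:**
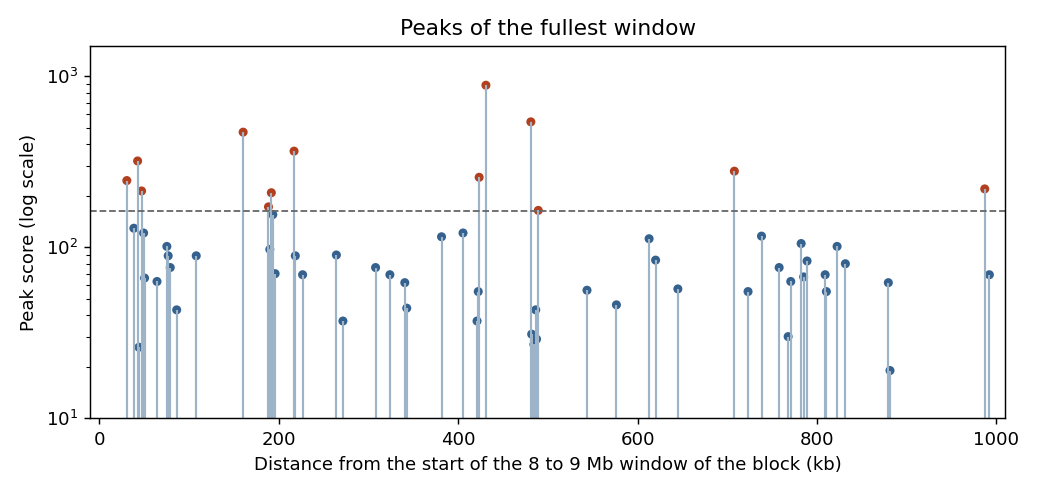
Score of each of the 62 peaks in the fullest window (vertical axis, log scale) against distance in kb from the window's start, which lies 8 Mb into the block (horizontal axis). Red points score 163 or more, the dashed line. In the first 500 kb lie 11 of the 13 red points and 40 of all 62 points, and the highest is 884.

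The weaker peaks of this window had a higher median width than those elsewhere, and its strong peaks did not. Width and score rose together across the 343 peaks of the block, with a rank correlation (Spearman's rho) of 0.62, given as a description because both come from the same reads. The median width was 542 bp in the window from 32 to 33 Mb, against 474 bp in the other block peaks and 472 bp on the rest of chromosome 2. Among peaks scoring under 93 alone, the window's 38 had a median width of 473 bp (order-statistic 95% interval 422 to 546 bp). The 147 such peaks in the other windows had a median of 419 bp (404 to 428 bp), and the 477 on the rest of the chromosome also had a median of 419 bp (407 to 429 bp). The interval of the window overlaps both, and the difference was not tested. Among strong peaks the median width was 628 bp in the window, 671 bp in the other block peaks and 633 bp on the rest of the chromosome. Only 2 of the window's peaks were wider than 1 kb. The widest peaks of the block lay together in the preceding window instead. They were at 31146636 to 31148532 (1897 bp, score 349), 31234872 to 31236758 (1887 bp, score 127) and 31237593 to 31239369 (1777 bp, score 398).

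Neighbouring peaks were close to each other in the block. Another midpoint lay within 10 kb of 212 of the 343 peaks (61.8%, exact binomial 95% interval 56.4 to 67.0%), against 44.6% (41.4 to 47.8%) on the rest of chromosome 2. In the stretch from 163 to 174 Mb the share was 59.7% (53.5 to 65.7%), which overlaps that of the block. The share within the block was highest, 77.4%, in the window from 32 to 33 Mb. A region with more peaks per Mb has closer neighbours whatever their arrangement, and the part of density in these shares was not tested. The median stretch between adjacent peaks was 14.03 kb in the block and 34.9 kb on the rest of the chromosome.

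Peaks with a close neighbour scored somewhat lower than peaks without one, both in the block and on the rest of chromosome 2. In the block, 25% of the 212 close peaks and 27.5% of the 131 others were strong, with medians of 83 and 90. On the rest of chromosome 2 the shares were 20.6% and 27.6%, with medians of 87.5 and 97. In the fullest stretch of chromosome 2 that did not overlap the block they were 14.6% and 23.6%, with medians of 82 and 90. The fullest window of the block went the other way, with 22.9% of 48 close peaks and 14.3% of 14 others strong. Without that window, 25.6% of 164 close block peaks and 29.1% of 117 others were strong, with medians of 84 and 97. None of these differences was tested. Scores of adjacent block peaks were only weakly related, with a rank correlation of 0.14 over 142 pairs up to 10 kb apart and 0.08 over 200 pairs farther apart. These are descriptions across peaks of 1 list.

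Runs, meaning 3 or more peaks whose adjacent midpoints are at most 10 kb apart, numbered 38 in the block. They held 148 peaks, or 43.1% of the block (37.8 to 48.6%), against 21.7% (19.1 to 24.4%) for the 55 runs on the rest of chromosome 2. Because the distance is fixed, a region with more peaks per Mb has more of its peaks in runs. The part of density in this difference was not tested. Of the 38 runs, 18 had 3 peaks, 10 had 4, 7 had 5, 2 had 6 and 1 had 7. Their lengths ran from 2.87 to 27.2 kb with a median of 9.94 kb. The window from 32 to 33 Mb had the most, with 7 runs holding 32 of its 62 peaks, and the window from 24 to 25 Mb had none.

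The 3 runs with most peaks differed in strength. The run of 7 peaks at 32030432 to 32050681 scored 245, 129, 319, 26, 213, 121 and 66 in order, so that strong and weaker peaks alternated over its first 5. The run of 6 at 32480656 to 32489686 scored 540, 31, 27, 43, 29 and 164, with 4 weak peaks between 2 strong ends. The run of 6 at 26122039 to 26149251 scored 46, 76, 66, 82, 137 and 90, with no strong peak, and was the longest at 27.2 kb.

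At least 1 strong peak was found in 25 of the 38 runs in the block, and 2 or more in 14. On the rest of chromosome 2 the counts were 33 and 9 of 55. Over all peaks, 25.9% were strong in the block and 24.5% on the rest of the chromosome. A run with more peaks is more likely to hold a strong one. Runs of only 3 peaks made up 18 of 38 in the block and 34 of 55 on the rest. The part of run size in these counts was not tested. Some runs had 1 high score among low ones, as in the runs at 27550283 to 27559118, with scores of 435 and next 58, and 27618069 to 27630031, with scores of 505 and next 70. Joining peaks with under 1 kb between them turned the 343 peaks into 300 regions, and 36 regions combined several peaks. The region at 32188268 to 32193771 combined 4, more than any other, and had a highest score of 208.

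**Figure D5:**
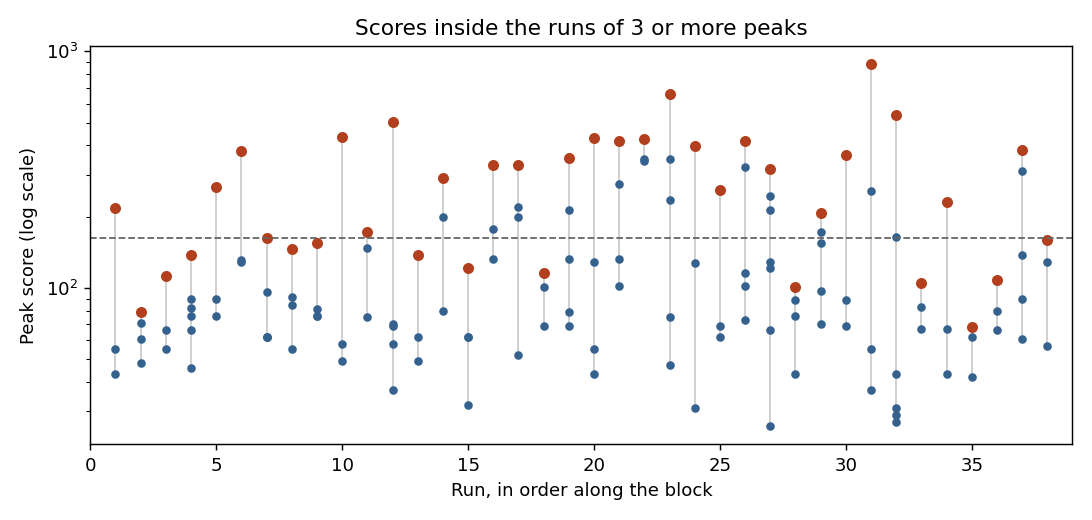
Scores of the peaks (vertical axis, log scale) in each of the 38 runs, numbered in order along the block (horizontal axis), with the strongest peak of each run in red, the others in blue and a dashed line at 163. In 25 runs the red point is at or above the line, and in 14 of these at least 1 blue point is too. Over all peaks of the block, 25.9% are at or above it.

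The crowding left some open stretches. The longest without a peak inside the block ran from 33991171 to 34482598 and measured 491 kb. It was followed by 255 kb from 24377589 to 24632553 and 231 kb from 26496099 to 26726772. In all, 4 of the 342 stretches between adjacent block peaks exceeded 200 kb and none exceeded 500 kb. On the rest of chromosome 2, 163 of 958 exceeded 200 kb and 66 exceeded 500 kb. A region with more peaks per Mb has fewer long stretches between them, and the part of density in these counts was not tested. An open stretch is not evidence of absent binding, since read depth and the calling threshold are unknown.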

How the data were processed

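A single deposited peak list of the series was analysed, in narrowPeak style on mm9, per the file header, whose name joins ChIP 1 and 2 against input 1 and 2. Per the submitters' processing notes, cutadapt and MACS2 version 2.0.10.20131216 were used. For the aligner, the treatment of duplicate reads and the calling threshold, the sources used here give nothing. Each peak has a start, an end and a score as deposited by the authors. Read depth per library is unknown.

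Starts were converted to positions counted from 1. Peaks were taken by midpoint, and the span of chromosome 2 ran from its first to its last peak. Counts have exact Poisson, shares exact binomial and medians order-statistic intervals at 95%, and a count of 0 allows up to 3 counts. Strong peaks score 163 or more, the list's upper quartile. Calculations used Python 3.11.15, numpy 2.4.6 and scipy 1.17.1, and were tested on simulated lists. No test over samples was possible.

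The block and all definitions were chosen with earlier results of these data known. The rule for named peaks gave the 20 highest scores, the highest in each 1 Mb window, the 3 runs with most peaks, the 3 longest open stretches, the widest peak and the strong peaks from 32 to 33 Mb. The peaks from 30 to 31 Mb, the next 2 widest peaks, the runs with 1 high score and the joined region were chosen after their values were seen. The alternatives covered score, joining, block edges, window placement and distance.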

Additional observations from a re-analysis of the deposited data

How the results depend on the processing

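Of 22 alternatives, 14 left a value inside its interval or a count within 1.5 times. The density ratio of the block to the rest of chromosome 2, 5.44, was 6.26 with the block narrowed by 1 Mb at each end and 3.92 when the rest was counted only over its 119 occupied windows. It lay between 4.94 and 5.77 under the other 4. The share of block peaks with a neighbour was 48.4% within 5 kb and 94.5% within 50 kb, 40.5% among scores of 93 or more and 53.0% after joining peaks under 1 kb apart, against 30.2%, 75.4%, 23.6% and 39.0% on the rest of the chromosome. The fullest window held 28 peaks among scores of 93 or more and 17 among scores of 163 or more, and in both cases it was the window from 30 to 31 Mb in place of that from 32 to 33 Mb. The difference in median score, -4, stayed between -6 and -3. The number of runs was 28 at 5 kb and 43 at 20 kb. No paired analysis was possible because all libraries were merged into 1 list, which also means that no replicate could be left out.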
